A study of Mus musculus with 4 samples.

Results

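The transcripts described here encode m6A readers, the proteins that recognise N6-methyladenosine (m6A) in RNA. The 10 readers were *Ythdf1*, *Ythdf2*, *Ythdf3*, *Ythdc1*, *Ythdc2*, *Igf2bp2*, *Hnrnpa2b1*, *Hnrnpc*, *Fmr1* and *Prrc2a*, and their peaks were taken as the rows carrying these gene names in 3 deposited tables, namely the peaks called in CCI, those called in sham and a differential table. They had 30 of the 33556 CCI peaks, 26 of the 34406 sham peaks and 9 of the 4812 differential rows. Of the 10 readers, 8 had a peak in each list, among 13554 gene names with a peak in either list. The other 2, *Ythdc2* and *Hnrnpc*, had no row in any of the 3 tables used here, neither under a synonym nor over their RefSeq spans, and are counted as having no peak.

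Spinal cord came from male C57BL/6J mice of 6 to 8 weeks, taken 7 days after surgery. In the CCI group, loose silk ligatures were tied around the sciatic nerve (chronic constriction injury, a model of neuropathic pain), and in the sham group, labelled as control, the same operation was done without ligature. Each group had 1 IP library, made from poly(A) RNA fragments captured with an m6A antibody, and 1 input library without capture. How many mice were behind a library is not given in the sources used here. The design thus gives no replicate spread for any difference between CCI and sham, and p-values were left out. The unit throughout is the deposited fold enrichment, the ratio of IP over input within a peak, so it is a measure of capture and not of mRNA level. The tables hold no read counts, and the depth of the libraries is unknown. All 14 marker genes of spinal cord neurons, oligodendrocytes, astrocytes, microglia and cord Hox genes had a peak in both lists, which is a check of presence only.

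m6A is written co-transcriptionally by a methyltransferase complex, can be removed by FTO and ALKBH5, and acts through readers. The cytoplasmic YTHDF proteins bind m6A with a YTH domain and direct mRNA to decay or translation, while YTHDC1 acts in the nucleus on splicing and export. IGF2BP2 stabilises its targets, HNRNPA2B1 and HNRNPC act in nuclear RNA processing, and FMRP (encoded by *Fmr1*) represses translation in neurons and is lost in fragile X syndrome. PRRC2A is a reader known from oligodendrocyte development. In bulk tissue, a change in the share of a cell type and a change within its cells cannot be told apart.

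In both lists, 3 readers had a 5′-UTR peak with a part at the transcript start, and the peak of *Fmr1* had the largest ratio of CCI to sham among all reader peaks. The first 30 transcribed bases at these 3 starts are shown because they lie at these peaks; the remaining sequence under the reader peaks was not used here. They are from RefSeq on GRCm38.p6, written 5′ to 3′ on the transcribed strand, with capitals for bases inside the peak. They lie at chrX:68678582-68678611 on the plus strand for *Fmr1*, at chr17:35164848-35164877 on the minus strand for *Prrc2a* and at chr5:86804266-86804295 on the plus strand for *Ythdc1*.
*Fmr1*: AGTCAGTCAGGCGCTGGGGAGCGTTTCGGT
*Prrc2a*: AGTCGGAGCCCAGCCGCGGAGTGAGCGAGG
*Ythdc1*: gcgccgcccggcgtcGCCATCTGTGTCTCT
The m6A consensus, AC preceded by A or G, with A, G or T before that and A, C or T after it, was searched in the first 50 transcribed bases. It was on the transcribed strand at none of these 3 starts and on the opposite strand at those of *Fmr1* and *Ythdc1*. Of all 32851 windows of 50 bases, 54.4% had it on the transcribed strand and 55.2% on the other. With only 3 starts, no lack of the consensus can be read from this. The windows cover only a part of each peak, so whether the peaks hold the consensus elsewhere was not examined. A second RefSeq start of *Fmr1*, at position 68678541, had the consensus on the transcribed strand, in its first 30 bases, which lie before the peak.

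In *Fmr1*, the 5′-UTR peak covered the same 181 bases in both lists, from 68678571 to 68678751 on chromosome X. Its fold enrichment was 33.9 in CCI and 8.13 in sham, a ratio of 4.17 (log2 ratio 2.06). This put it among the top 6.31% of CCI peaks, against the top 37.0% of sham peaks. The deposited false discovery rate of IP against input at these bases was 3.09e-10 in CCI and 4.37e-07 in sham. Every other CCI reader peak with a fold enrichment of at least 21.5 had a far lower rate. The highest of these was 1.58e-56, for the *Ythdc1* peak at 22.6. Of the sham reader peaks above 8.13, only the 5′-UTR peak of *Ythdf1* (12.8) had a higher rate, 0.00741. Whether the weaker evidence for the *Fmr1* peak makes its ratio less stable was not tested. No row of the differential table lay over this *Fmr1* peak.

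Further along *Fmr1*, the CCI list held a peak from 68710637 to 68711948, annotated in exon 14 of 17, with a fold enrichment of 2.90. No sham peak overlapped it, and the single *Fmr1* row of the differential table lay over these bases. The neighbouring peak, annotated in exon 15 of 17 and ending at 68713284 in both lists, had 3.40 in CCI and 2.41 in sham (log2 ratio 0.50). All 3 CCI peaks of *Fmr1* were thus either above their sham partner or without one.

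*Ythdc1*, encoding the nuclear YTH reader, had the most peaks of the readers, 10 in CCI and 7 in sham. Only 1.51% of the genes in the CCI list and 5.08% of those in the sham list had as many or more. The *Ythdc1* counts include peaks that overlap each other within a list, described below, so they are numbers of called peaks and not of separate sites. Its 5′-UTR peak, with the same borders from 86804281 to 86806459 on chromosome 5 in both lists, was slightly lower in CCI, with a fold enrichment of 22.6 against 25.9 in sham (log2 ratio -0.20).

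The largest *Ythdc1* ratio was in an internal part of the gene, in the peak starting at 86816961 and annotated in the tables as exon 5 of 5. Its fold enrichment was 30.7 over 360 bases in CCI and 12.1 over 330 bases in sham (log2 ratio 1.34). A second peak in both lists, from 86816960 to 86817106, covers part of the same bases and is no separate site, and it had 11.9 in CCI and 9.26 in sham (log2 ratio 0.36). A row of the differential table overlapped both.

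Just before this exon, the CCI list held 2 overlapping *Ythdc1* peaks that no sham peak overlapped. The one from 86815635 to 86816577, annotated in exon 3 of 5, had a fold enrichment of 8.34. The other, ending at 86816582, had 8.97 and began with a block of 14 bases that lay 35499 bp before the RefSeq start of *Ythdc1*. The other 2 *Ythdc1* rows of the differential table were nearly the same bases of this place, and they carried an IP over input enrichment of 2.01 and 2.04.

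Towards the 3′ end of *Ythdc1*, 4 peaks annotated in a 3′-UTR were paired between the lists. The peak ending at 86829535 had 8.39 in CCI and 4.85 in sham (log2 ratio 0.79), and the one ending at 86835941 had 7.95 and 5.87 (log2 ratio 0.44). The other 2 differed little, with log2 ratios of 0.14 and -0.01. A CCI peak from 86828278 to 86828428, with a fold enrichment of 2.07, had no sham partner. None of these 3′-UTR peaks overlapped a differential row.

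Among the cytoplasmic YTHDF readers, most peaks were annotated in exon 4 of 5. *Ythdf1* had 3 paired peaks in this exon on chromosome 2, each higher in CCI. From 180911217 to 180911635, the fold enrichment was 21.5 in CCI, against 15.1 in sham for the wider sham peak over these bases (log2 ratio 0.51). The peak ending at 180911067 had 13.3 in CCI and 9.96 in sham (log2 ratio 0.42), and the weakest, starting at 180911814 in CCI, had 2.43 and 1.66 (log2 ratio 0.55). *Ythdf1* also had a peak of its own in each list: in CCI one annotated in exon 3 of 5 with 1.73, and in sham a 5′-UTR peak with 12.8 and a false discovery rate of 0.00741.

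*Ythdf2* had nearly equal values in both lists. Its long peak from 132204187 on chromosome 4 had a fold enrichment of 5.74 in CCI and 5.57 in sham, and its short peak ending at 132205442 had 2.22 and 2.10 (log2 ratios 0.04 and 0.08). *Ythdf3* had a single CCI peak, from 16204104 to 16214191 on chromosome 3, with 7.71 over 1558 exonic bases. The sham list held 2 peaks over the same stretch, with 8.73 over 929 bases in exon 4 of 5 and 5.89 over 570 bases annotated in the 3′-UTR. Its pair had a log2 ratio of -0.18, but the mean over all peak bases of *Ythdf3* was 7.71 in CCI and 7.65 in sham, so the sign of this pair depends on which sham peak is taken as its partner. None of the 3 YTHDF genes had a row in the differential table.

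Of the readers without a YTH domain, *Prrc2a* had the strongest peaks, 5 in each list. Its 5′-UTR peak, with the same borders from 35161672 to 35164897 on chromosome 17, had a fold enrichment of 69.3 in CCI and 41.1 in sham (log2 ratio 0.75), and no differential row overlapped it. Only 163 of its 659 exonic bases, in 1 of 5 blocks, lay at the transcript start. The other blocks lay further along the transcript. The broad peak around exon 15 of 31 was a single sham peak of 2305 exonic bases with 47.9, and was split in CCI into a peak of 1946 bases with 58.3 (log2 ratio 0.28) and one of 270 bases with 17.1. The peak starting at 35157934 in CCI was lower there, with 8.44 against 10.1 in sham (log2 ratio -0.26). The 2 *Prrc2a* rows of the differential table lay over these last 2 places.

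A weak *Prrc2a* peak in exon 21 of 31 had 1.22 in CCI and 1.27 in sham and was among the weakest of either list. A short 3′-UTR peak from 35149166 to 35149256, with a fold enrichment of 6.39, was in the sham list only. The ratios of *Prrc2a* thus went both ways along the same transcript.

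*Hnrnpa2b1*, encoding a nuclear RNA-binding protein, had 3 peaks in each list, all in internal exons on chromosome 6 and all higher in CCI. The fold enrichment from 51463483 to 51464797 was 8.28 in CCI and 7.31 in sham (log2 ratio 0.18). From 51465156 to 51465971 it was 11.9 and 8.91 (log2 ratio 0.42), and at the peak starting at 51466121 it was 3.16 and 2.23 (log2 ratio 0.50). Each of the 3 overlapped a row of the differential table, although none reached a log2 ratio of 1.

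*Igf2bp2*, encoding the stabilising reader, had only short peaks, all in the 3′-UTR. Its 3′-UTR peak from 22059698 on chromosome 16 had a fold enrichment of 3.65 over 61 bases in CCI and 3.21 over 121 bases in sham (log2 ratio 0.19). A second 3′-UTR peak, in the CCI list only, had 9.90 at a false discovery rate of 0.0102.

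**Figure D1:**
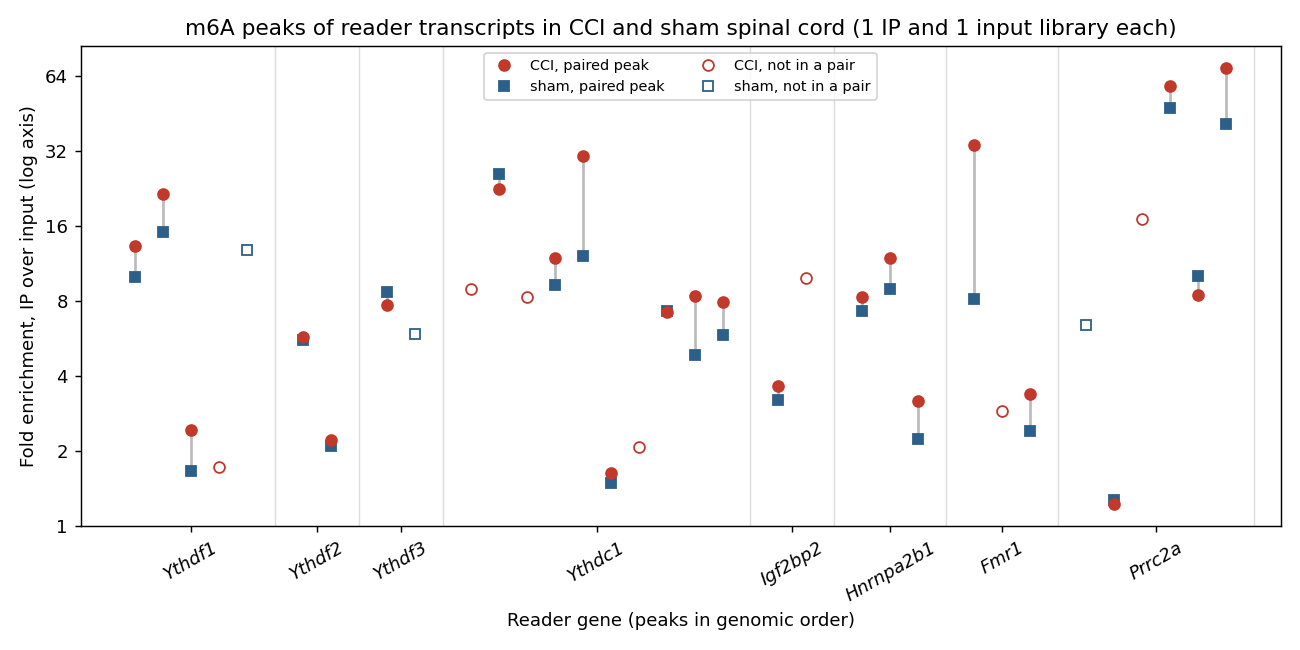
Fold enrichment of IP over input (log axis) of each m6A peak in the 8 reader genes with a peak. Circles are CCI and squares are sham, grey lines join the 23 pairs, and open symbols are peaks outside a pair. The widest gaps are the *Fmr1* 5′-UTR peak (33.9 in CCI, 8.13 in sham) and the *Ythdc1* peak of 30.7 in CCI and 12.1 in sham.

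Ordered by their strongest CCI peak, the readers ran from *Prrc2a* (69.3) through *Fmr1* (33.9), *Ythdc1* (30.7), *Ythdf1* (21.5), *Hnrnpa2b1* (11.9), *Igf2bp2* (9.90) and *Ythdf3* (7.71) to *Ythdf2* (5.74). In sham the order was *Prrc2a* (47.9), *Ythdc1* (25.9), *Ythdf1* (15.1), *Hnrnpa2b1* (8.91), *Ythdf3* (8.73), *Fmr1* (8.13), *Ythdf2* (5.57) and *Igf2bp2* (3.21). *Fmr1* and *Igf2bp2* stood higher in the CCI order than in the sham order. For *Igf2bp2*, this rests on its CCI-only peak of 61 bases, which had a false discovery rate of 0.0102. Its other CCI peak had 3.65, which would place it last, as in sham. With 1 library pair per group there is no spread against which neighbours in either order could be told apart.

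A pair is a CCI and a sham peak that were each other's best partner by shared exonic bases. The 23 reader pairs had a median log2 ratio, CCI over sham, of 0.36 with quartiles at 0.06 and 0.51, beside a median of 0.03 with quartiles at -0.37 and 0.43 for all 27380 pairs. Of the reader pairs, 18 (78.3%, 95% Wilson interval 58.1 to 90.3%) were higher in CCI, against 51.8% of all pairs. All pairs of 5 readers (*Ythdf1*, *Ythdf2*, *Igf2bp2*, *Hnrnpa2b1* and *Fmr1*) were higher in CCI, those of *Ythdc1* and *Prrc2a* went both ways, and the single pair of *Ythdf3* was lower. Over the 7 reader pairs with the same borders in both lists, the median was 0.36, and it was 0.07 over the 5237 such pairs of all genes. The pairs of a gene share a transcript, and every pair shares the same 4 libraries, so the intervals given here cover counting error only.

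Most of these ratios were small. A log2 ratio of at least 1 was reached by 2 of the 23 reader pairs, those of *Fmr1* and *Ythdc1* above, a share of 8.70% that was near the 8.59% of all pairs. None of the reader pairs had a log2 ratio of -1 or less, against 7.25% of all pairs, and a count of 0 in 23 allows up to 14.3% by the Wilson interval. The reader pairs next below the limit were those of *Ythdc1* (0.79) and *Prrc2a* (0.75).

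**Figure D2:**
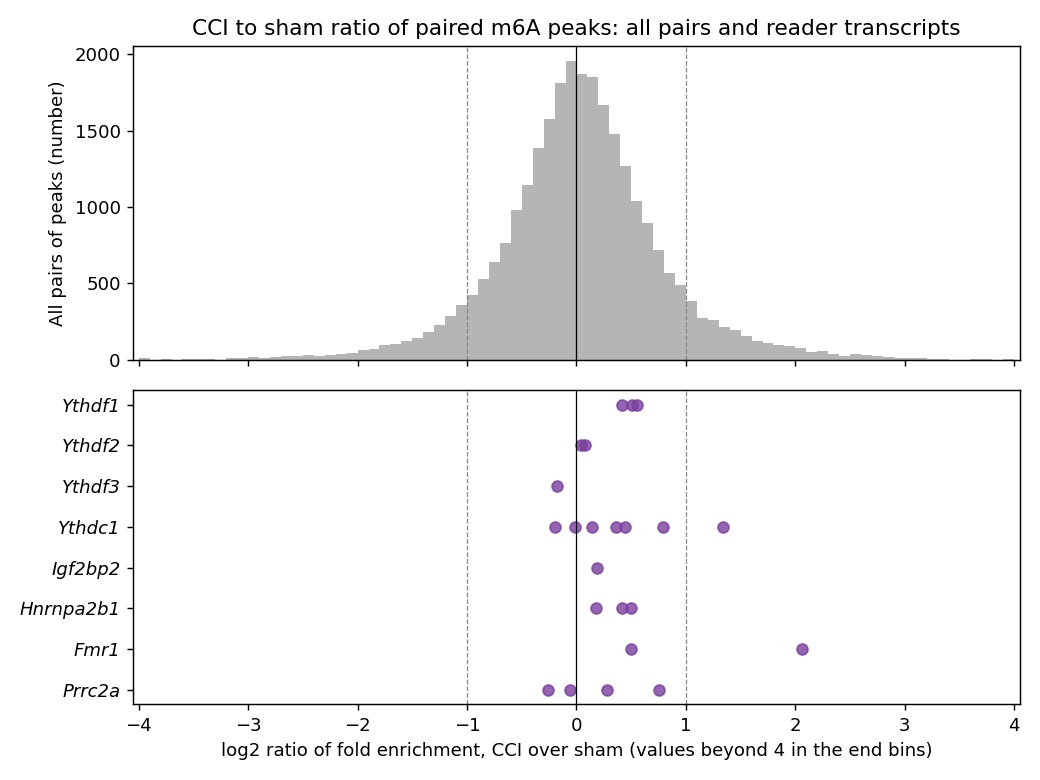
Histogram of the log2 ratio of fold enrichment (CCI over sham) over all 27380 pairs of peaks, and below it each of the 23 reader pairs by gene, with dashed lines at log2 ratios of -1 and 1. The reader pairs lie between -0.26 and 2.06, and 18 are above 0.

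Of the CCI peaks of the readers, 24 (80.0%, 62.7 to 90.5%) overlapped a sham peak by at least 1 bp of exonic sequence, and 24 of the 26 sham peaks (92.3%, 75.9 to 97.9%) overlapped a CCI peak. The 6 CCI peaks without a partner (20.0%, 9.51 to 37.3%, against 12.3% of all CCI peaks) were 3 of *Ythdc1* and 1 each of *Fmr1*, *Ythdf1* and *Igf2bp2*. Of the 3 *Ythdc1* peaks, 2 overlapped each other and are no separate sites. The 2 sham peaks without a partner (7.69%, 2.14 to 24.1%, against 16.1% of all sham peaks) belonged to *Ythdf1* and *Prrc2a*. Both background shares lay inside the intervals of the readers.

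Rows of the differential table named 4 of the 10 readers, of which 8 had a peak, beside 25.3% of all gene names with a peak. *Ythdc1* and *Hnrnpa2b1* had 3 rows each, *Prrc2a* had 2 and *Fmr1* had 1. Of the *Ythdc1* rows, 2 covered nearly the same bases. Of the 9 reader rows, 6 lay over a peak in both lists and 3 over a CCI peak only. Among the 23 reader pairs, 7 (30.4%, 15.6 to 50.9%) overlapped a differential row with both peaks, against 15.6% of all pairs. The share of all pairs is at the lower limit of this interval, and 3 of the 7 pairs were of *Hnrnpa2b1*. Size of ratio and presence in that table did not go together in *Fmr1* and *Hnrnpa2b1*: the *Fmr1* 5′-UTR pair with a ratio of 4.17 had no row, while the *Hnrnpa2b1* pairs with ratios of 1.13 to 1.42 had one each. Only its rows, positions and enrichments of IP over input were used, and its columns that compare CCI with sham were not.

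**Figure D3:**
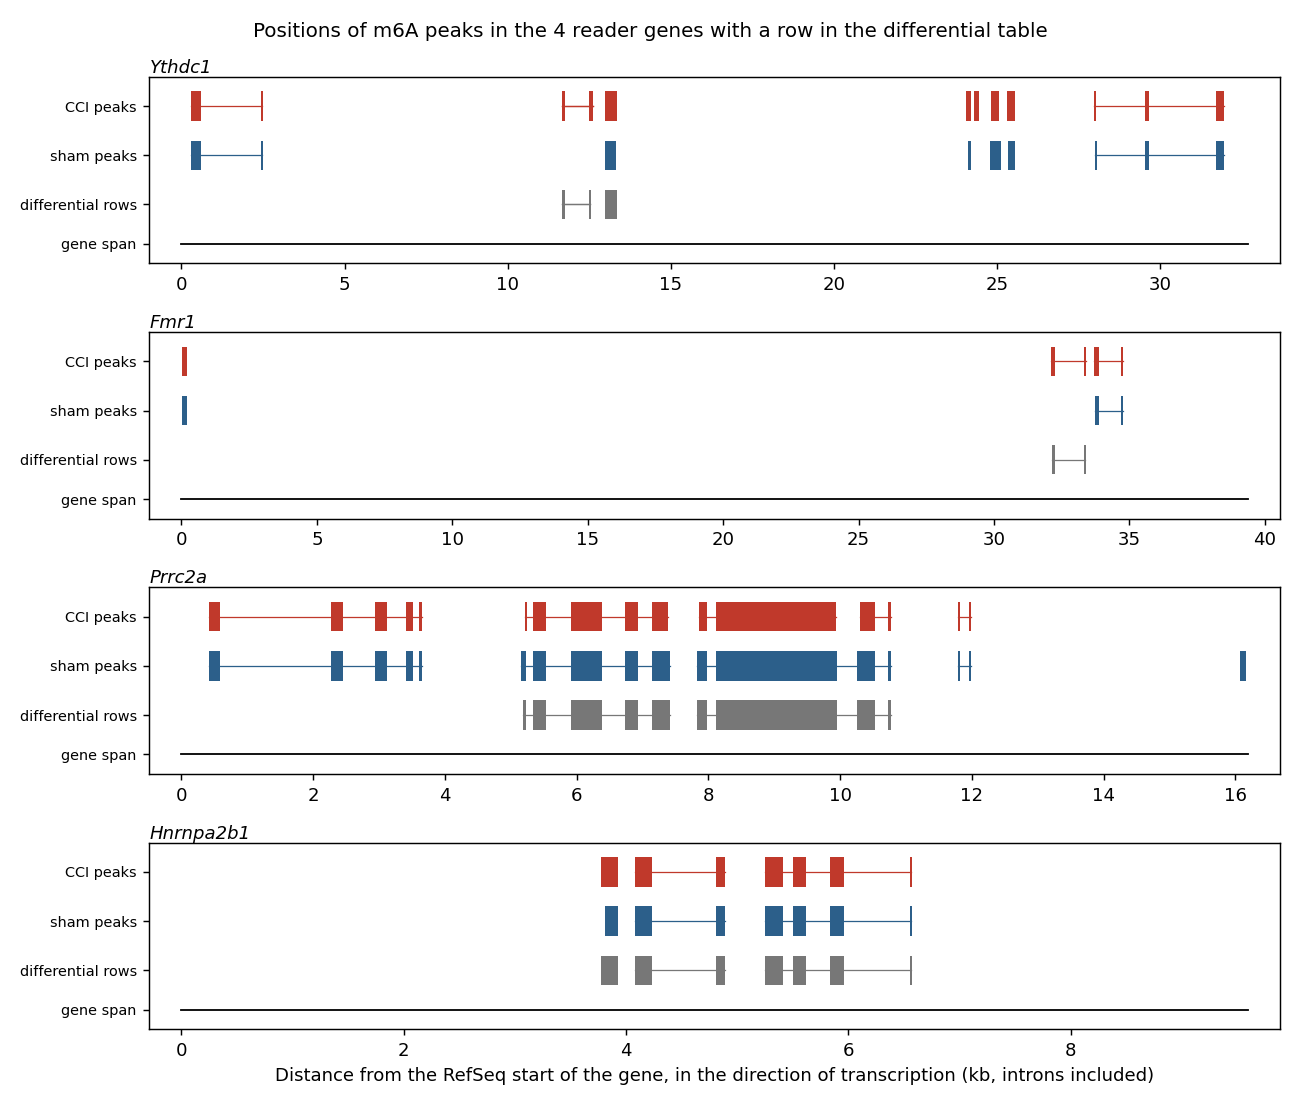
Exonic blocks of the CCI peaks, the sham peaks and the differential rows along *Ythdc1*, *Fmr1*, *Prrc2a* and *Hnrnpa2b1*, by distance from the RefSeq start in the direction of transcription (kb, introns included), with thin lines joining the blocks of a peak. The block of *Ythdc1* that lies 35499 bp before the start is left out. The gene starts used here are the outermost in RefSeq, and for *Ythdc1*, *Fmr1* and *Prrc2a* they lie before the transcript starts whose bases are printed. Peaks in CCI without a sham partner are seen in *Ythdc1* and *Fmr1*, and the sham-only 3′-UTR peak in *Prrc2a*.

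By the deposited annotation, reader peaks lay more in exons and less in the 3′-UTR than the peaks of all genes. In CCI, 18 of the 30 reader peaks were in an exon (60.0%, 42.3 to 75.4%), beside 35.5% (35.0 to 36.0%) of all CCI peaks. In sham it was 15 of 26 (57.7%, 38.9 to 74.5%), beside 35.1% (34.6 to 35.6%) of all. The 3′-UTR held 8 reader peaks in CCI (26.7%, 14.2 to 44.4%) and 7 in sham (26.9%, 13.7 to 46.1%), beside 49.8% and 48.9% of all peaks.

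The exon peaks came from 6 readers in CCI (*Ythdf1*, *Ythdf2*, *Ythdc1*, *Hnrnpa2b1*, *Fmr1* and *Prrc2a*), joined in sham by *Ythdf3*. The single CCI peak of *Ythdf3* covered nearly all bases of that sham exon peak but was annotated in the 3′-UTR. The 3′-UTR peaks were mostly of *Ythdc1*, 5 of the 8 in CCI and 4 of the 7 in sham. The 5′-UTR held 4 reader peaks in each list, 13.3% in CCI and 15.4% in sham, near the 14.7% and 16.1% of all peaks. The 4 in CCI include the *Ythdc1* peak with the block 35499 bp before the gene, whose other blocks lie over the peak annotated in exon 3 of 5. The exon and 3′-UTR shares of all peaks lay outside the intervals of the readers in both lists, but several peaks share a transcript, so the intervals are too narrow for a comparison between genes.

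**Figure D4:**
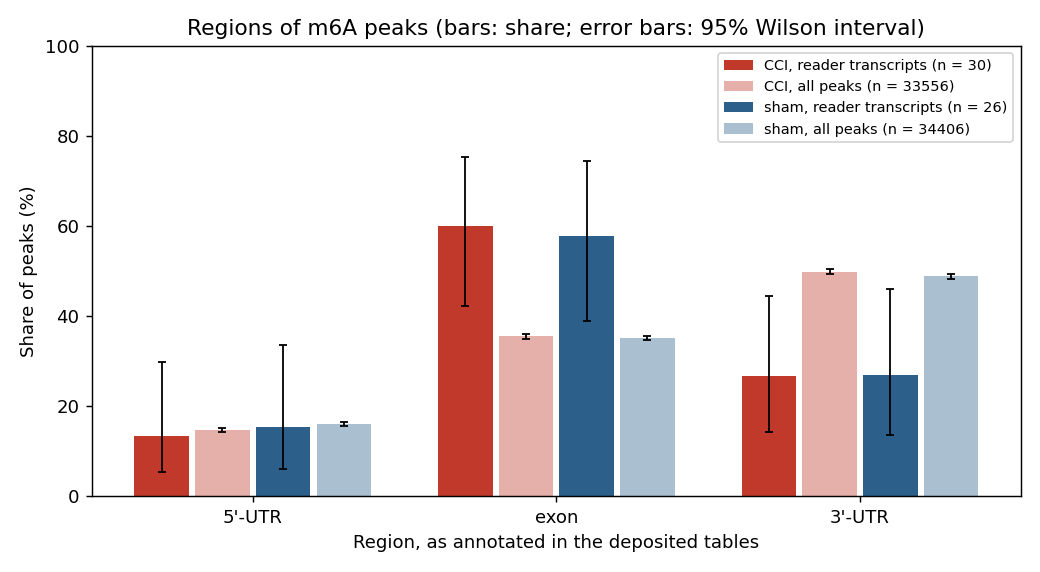
Share of peaks (%) in the 5′-UTR, exon and 3′-UTR for the reader transcripts (dark bars) and for all peaks (pale bars), in CCI (red) and sham (blue). Error bars are 95% Wilson intervals (counting error only). The exon share of the readers is 60.0% in CCI and 57.7% in sham, and that of all peaks 35.5% and 35.1%.

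Another 16 genes encode other reported readers or m6A-associated RNA-binding proteins. Of these, 12 had a peak in both lists. *Elavl1*, encoding the RNA-stabilising protein HuR, had one only in CCI (a fold enrichment of 1.67). *Igf2bp1*, *Igf2bp3* and *Fxr1* had no row under their names in either. Over the 41 pairs of these 16 genes the median log2 ratio was 0.14 (quartiles -0.08 and 0.44). Of these pairs, 27 were higher in CCI, beside 51.8% of all pairs. Only 1 pair in each direction passed a log2 ratio of 1, a 5′-UTR peak of *Snd1* (16.7 in CCI, 2.29 in sham, log2 ratio 2.87) and a 3′-UTR peak of *Fxr2*, a paralog of *Fmr1* (28.0 in CCI, 109 in sham, log2 ratio -1.96). Over all pairs, 8.59% had a log2 ratio of at least 1 and 7.25% had one of -1 or less. Rows of the differential table named 5 of the 13 with a peak in CCI or in both lists, beside 25.3% of all gene names with a peak. The 5 were *Lrpprc*, *Snd1*, *Eif3a* and the paralogs of *Prrc2a*, *Prrc2b* and *Prrc2c*.

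The writers and erasers of m6A were taken as 11 genes, of which 9 had a peak in both lists. *Mettl3* and *Mettl14*, the methyltransferase core, had no row under their names in either. The 24 pairs of the writers and erasers had a median log2 ratio of 0.17 (quartiles -0.29 and 0.55). Of the 24, 13 were higher in CCI, beside 51.8% of all pairs. The pairs past a log2 ratio of 1 were both in exons of subunits of the writer complex, *Virma* (10.9 in CCI, 3.55 in sham, log2 ratio 1.62) and *Zc3h13* (3.30 in CCI, 18.1 in sham, log2 ratio -2.46). Of the 9 with a peak, 6 had a row in the differential table, beside 25.3% of all gene names with a peak. The quartile ranges of both lists overlap that of the readers, and no difference between the lists was tested.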

How the data were processed

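MeRIP-seq was done on spinal cord with 1 IP and 1 input library per group. The authors deposited the fold enrichment as a ratio of IP over input in each peak, and a score, the log10 false discovery rate of IP against input, which reaches minus infinity. The paper names Cutadapt, bowtie, MACS2 and ChIPseeker, the submitters' processing notes name fastp, HISAT2, HOMER, ChIPseeker and GRCm38, and the column names are those of exomePeak output. Library preparation used dUTP, and whether strand entered peak calling is not given in the sources used here. No exonic block of a reader peak or differential row (126 in all) lay over another RefSeq gene. The differential table also holds the authors' fold changes, p-values and false discovery rates of CCI against sham, which were not used.

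Rows were matched by gene name. Synonyms and RefSeq spans were checked for *Ythdc2* and *Hnrnpc* only, so a lack of peaks in genes of the other lists rests on the name alone. Peaks overlapped where their exonic blocks shared 1 bp or more. Pairs were mutual best partners by shared bases over the union of bases. All 10 readers were found by symbol in RefSeq (GRCm38.p6), and 8 had a promoter window there. Shares have 95% Wilson intervals. All 10 members were named with every peak, and genes of the other lists where a pair passed a log2 ratio of 1 or a list held no peak. *Prrc2b*, *Prrc2c*, *Lrpprc* and *Eif3a* were named after their values were seen. The members and lists were chosen with earlier results of these data known. Pairing was run on simulated lists of 3000 peaks, where 2700 of 2700 true pairs were recovered. The simulated peaks lay well apart and had at most a single partner each. This was thus a check of the code, and split or overlapping peaks, as in *Prrc2a*, *Ythdf3* and *Ythdc1*, were not covered. Scripts ran in Python 3.11.15 with pandas 2.3.3 and numpy 2.4.6, and plots were drawn with matplotlib 3.10.9.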

Additional observations from a re-analysis of the deposited data

How the results depend on the processing

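No paired analysis was possible because CCI and sham have a single IP library each and nothing was tested. The 11 results on the readers were recomputed in 37 alternatives, and 33 of these stayed within the interval of a share, within 1.5 times a count or within 0.1 on the log2 scale. The alternatives were a stricter overlap (50% of both peaks), a fold enrichment of at least 2, a false discovery rate below 0.01, matching by gene ID, centring on all pairs, counting per member and rank positions. Pairs with the same borders and pairs without *Ythdc1* were chosen after seeing the data. The median log2 ratio of the reader pairs (0.36) ran from 0.24, with rank positions in place of fold enrichment, to 0.39, among peaks enriched 2 times or more. It kept its sign, but the value with rank positions lay beyond the margin of 0.1 and is 1 of the 4 alternatives that moved. The number of pairs at a log2 ratio of 1 or more fell from 2 to 1 with 1 value per member, with the same borders only and without *Ythdc1*, since each of these leaves out or averages a pair. Requiring a fold enrichment of at least 2 left 3 readers in the differential table. With 1 library per group and no counts, the error of every ratio is unknown.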

Other observations

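Among the 14 cell type and cord marker genes used to check the tissue, 13 had a row in the differential table, *Chat* being the exception, whereas 25.3% of all gene names with a peak had one. Of their 48 pairs, 1 had a log2 ratio of at least 1 and 4 had one of -1 or less. Over all pairs, these shares were 8.59% and 7.25%. These genes were set as a check of presence, their rows were looked at after the values were seen, and the cause was not tested.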
